A study of Mus musculus with 7 samples.

Results

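The lysosomal gene program was followed in liver neutrophils through 38 genes, taken by symbol from a fixed list of lysosomal proteases, other acid hydrolases, lysosomal membrane proteins and subunits of the proton pump, with the regulator Tfeb. All 38 were found among the 16047 genes of the deposited table of RPKM values (read counts scaled by transcript length and by the mapped reads of the library). All 38 also had a mean over the 7 libraries of at least 1 RPKM, the level required, and the lowest of these means was 3.52 RPKM for Ctsc. Neutrophils, gated as CD11b+Ly6CloCX3CR1-GFP-Ly6G+, were sorted from livers of C57BL/6 male mice aged 8 to 12 weeks 24 h after acetaminophen had been given to induce liver injury (AILI). The control group received PBS (n = 4, replicates 5 to 8). The other group (n = 3, replicates 2 to 4) received conditioned medium containing MC-21, an antibody to CCR2, which leaves the injured liver deficient in infiltrating Ly6Chi monocytes. Injections of 400 µL with 29 µg of antibody per mL began 12 h before acetaminophen and were repeated every 24 h. All mice of both groups received acetaminophen, so no uninjured liver is compared here, and the control injection was PBS rather than a control antibody. The labels name a CX3CR1-GFP gate but give no reporter genotype. Each library came from 50000 cells of 1 liver.

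Lysosomes are acidic organelles in which proteins, sugars and lipids are broken down. The vacuolar proton pump (V-ATPase) acidifies them, soluble hydrolases do the degradation, and heavily glycosylated membrane proteins shield and connect the compartment. Cysteine cathepsins (B, C, H, L, S and Z) and the aspartic protease cathepsin D are the main endoproteases and exopeptidases. The transcription factor TFEB binds an E-box, the core of the CLEAR element, in the promoters of many lysosomal genes. Neutrophils carry lysosomal enzymes as well as azurophil granules, lysosome-related organelles that are filled during development in the bone marrow.

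The comparison of MC-21 with PBS addressed how monocyte deficiency relates to the neutrophil transcriptome. Among members whose groups did not overlap, the 4 with the largest fold changes were cathepsins C and S, lysosomal acid phosphatase (Acp2) and the glycoprotein Cd68, all lower in neutrophils of MC-21-treated mice. Their mean RPKM was 3.45-fold, 2.08-fold, 2.27-fold and 1.68-fold higher in PBS. Cathepsin L differed in the other direction, with a mean 1.39-fold higher in MC-21. The 5 proton pump subunits had log2 fold changes between -0.13 and 0.51, with a median of 0.03. None of these differences passed the adjusted threshold in the fit across all genes, as given next. In sorted bulk samples, fewer cells of a type and less RNA per cell cannot be told apart.

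Across the 9594 genes tested with limma on log2(RPKM + 1), 60 genes (0.625%) had an adjusted p under 0.05, and 0 of the 38 lysosomal genes did. At an unadjusted p under 0.05, 9 members (23.7%) were lower in MC-21 against 11.2% of all genes, and 1 member (2.63%), Ctsl, was higher against 3.59%. With a change of at least 2-fold on the log2(RPKM + 1) scale in addition, 2 members (5.26%), Ctsc and Ctss, were lower against 1.68% of all genes, and 0 were higher against 1.02%. The study set the same cutoffs with an unmoderated test per gene, and on RPKM values that test gave 3 members, Ctsc, Ctss and Acp2. The share of all genes passing those cutoffs in that test is not given here. In 9 members (23.7%) every MC-21 library lay below every PBS library, against 10.2% of all genes, and in 0 members every MC-21 library lay above, against 3.1%. The unmoderated tests per gene, on log2 values or on RPKM, gave 0 members at an adjusted p under 0.05. Only 4 and 5 of the 9594 genes passed there, too few to tell the members from other genes. At an unadjusted p under 0.05 each gave 8 members, all lower in MC-21. Of all genes, 9.57% and 8.62% were lower at that level. Ctsl was not among the 8.

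The fold change was below 0 in 29 of 38 members (76.3%) and in 69.4% of all genes tested. The median log2 fold change was -0.26 over the members and -0.15 over all genes tested, so that a shift of the whole table lies under the members' values. With each library centred on its median, 24 members were below 0, against 47.3% of all genes, the median became -0.10 over the members and 0.02 over all genes, and groups were apart in 5 members downward against 4.27% of all genes and in 1 member upward against 7.01%. Without PBS replicate 5, groups were apart in 16 members downward and in 1 upward, against 13.9% and 4.19% of all genes. Without PBS replicate 8 they were apart in 9 downward and 0 upward, against 11.7% and 4.23%. Without MC-21 replicate 4 the counts were 11 and 1, against 15.2% and 5.74%. Of all 7 libraries, MC-21 replicate 4 was lowest in 12 members and PBS replicate 5 in 8, and PBS replicate 8 was highest in 16. PBS replicate 5 had the lowest PBS value in 24 of the 38 members, and its summed member level of 4017 RPKM lay below those of the MC-21 libraries, which were 4113, 4399 and 4144 RPKM. The other 3 PBS libraries summed to 5262, 5273 and 5722 RPKM. The groups therefore overlapped in the summed level through that 1 library.

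**Figure D1:**
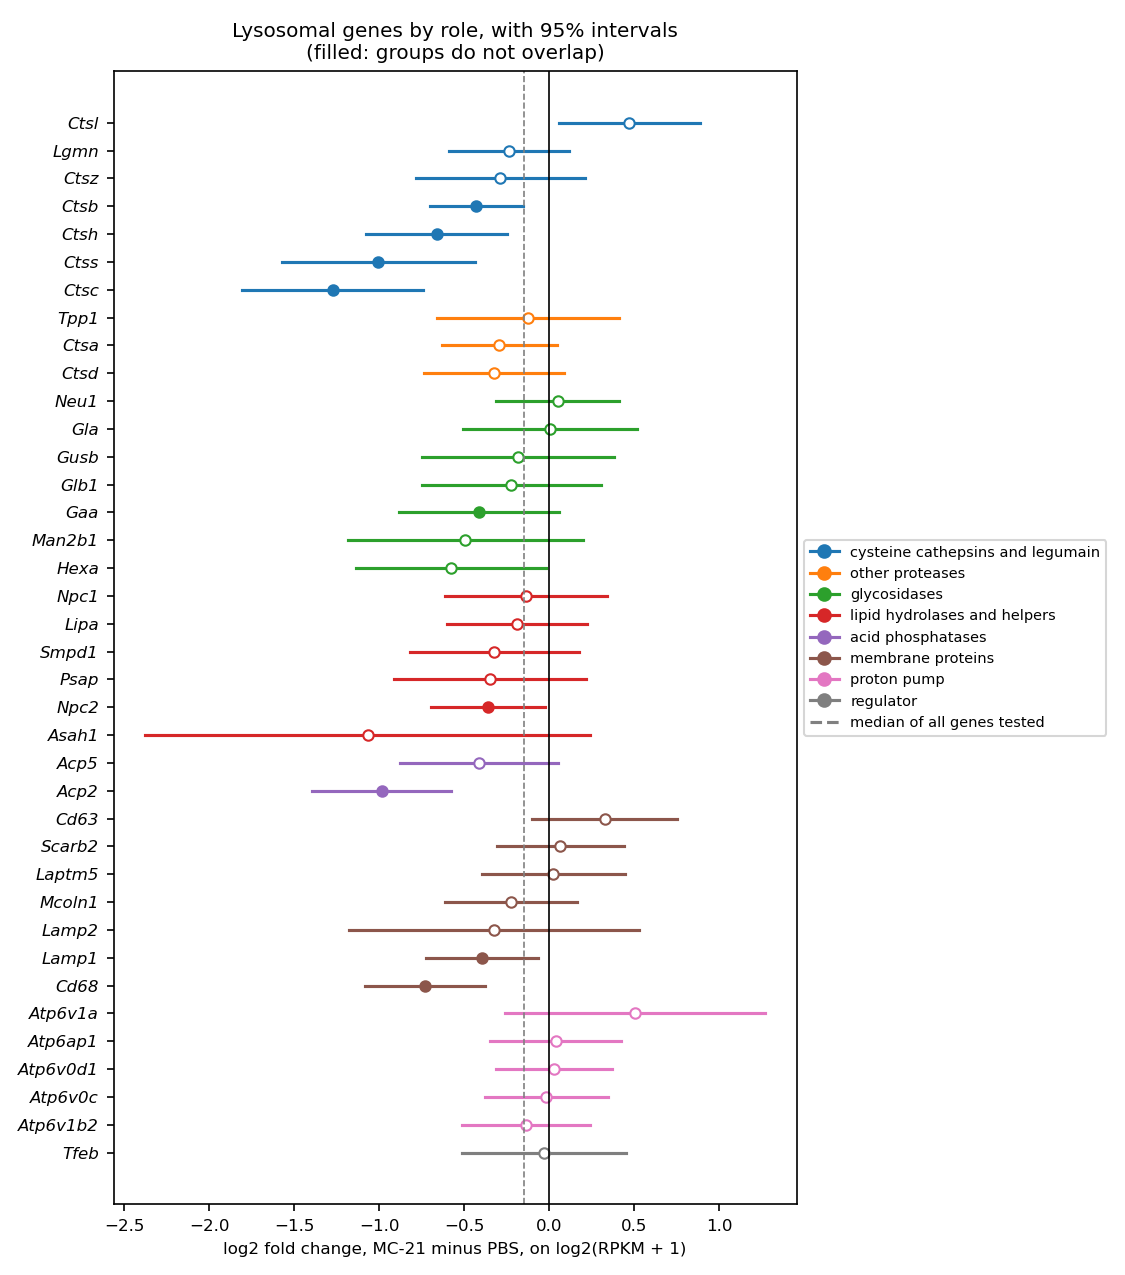
Log2 fold change (MC-21 minus PBS, on log2(RPKM + 1)) of the 38 lysosomal genes, coloured by role, with 95% intervals from limma. Filled points mark the 9 genes whose 4 PBS and 3 MC-21 libraries do not overlap, and the dashed line is the median of all genes tested, -0.15. Ctsc, Ctss, Acp2 and Cd68 lie farthest to the left among the filled points, and the proton pump subunits lie around 0.

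The depth behind these values was read from the smallest steps in the table. In a transcript of 1 kb, 1 RPKM stood for 2.66 to 3.96 reads in PBS and for 1.59 to 3.57 reads in MC-21, so that precision differs with the level of a gene. Ctsc rested on an estimated 8.12 to 61.8 reads per library and Acp2 on 26.0 to 136 reads, if the longest annotated transcript was the one used.

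Lysosomal transcripts spanned a wide range of levels in PBS neutrophils. Cathepsin D (Ctsd) was the most abundant at 883 ± 187 RPKM (SD, n = 4), followed by prosaposin (Psap), the precursor of sphingolipid activator proteins, at 774 ± 245 RPKM and cathepsin B (Ctsb) at 463 ± 33.6 RPKM. The first 2 of these differ by less than their spread. Laptm5, legumain (Lgmn) and Lamp1 came next, at 347 ± 74.7, 316 ± 49.4 and 286 ± 39.1 RPKM, and their spreads also overlap. At the low end lay Smpd1 at 8.41 ± 1.69, Acp2 at 8.06 ± 1.25, Glb1 at 7.60 ± 2.06, Npc1 at 7.46 ± 1.85 and Ctsc at 5.06 ± 1.56 RPKM. These are 3′ libraries, in which 1 transcript gives reads at its end whatever its length, so RPKM understates long transcripts. With RPKM multiplied by the length of the longest transcript, Ctsb ranked first, followed by Psap and then Ctsd, and Ctsc stayed in place 38. All 38 members together made up 0.800% to 1.19% of the summed RPKM in PBS and 0.821% to 0.887% in MC-21.

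The E-box of the CLEAR element was sought in the promoters because Tfeb and many of its known targets are among the members. RefSeq promoter windows (GRCm38.p6, from 250 bases before to 50 bases after the start) were found for 33 members, all but Ctsb, Ctsh, Asah1, Npc1 and Atp6v1b2. The letters CACGTG occurred in 11 of them (33.3%), against 12.1% of the 7448 tested genes with a window. The longer form TCACGTG, searched on both strands and containing the shorter form, occurred in 10 members (30.3%), against 7.21% of tested genes and 3.77% of all 32851 windows. The 10 are Lgmn, Ctsa, Ctsd, Gaa, Gla, Glb1, Lamp1, Mcoln1, Atp6v0d1 and Atp6v1a. Windows around the match are printed for 6 of them, chosen to cover proteases, a glycosidase, membrane proteins and the pump, with TCACGTG or its reverse complement in capitals. Coordinates are GRCm38.p6, which is not the build of the expression values.
Lamp1 (chr8:13159079-13159171, plus strand): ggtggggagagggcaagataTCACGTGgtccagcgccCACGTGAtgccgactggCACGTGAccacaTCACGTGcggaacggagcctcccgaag
Ctsd (chr7:142387899-142387946, minus strand): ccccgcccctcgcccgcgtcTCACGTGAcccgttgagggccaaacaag
Gaa (chr11:119267802-119267848, plus strand): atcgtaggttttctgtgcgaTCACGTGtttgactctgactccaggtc
Mcoln1 (chr8:3500427-3500500, plus strand): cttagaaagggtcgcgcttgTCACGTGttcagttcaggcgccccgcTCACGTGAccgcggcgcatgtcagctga
Atp6v0d1 (chr8:105566041-105566088, minus strand): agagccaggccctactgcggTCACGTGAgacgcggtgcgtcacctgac
Atp6v1a (chr16:44139364-44139411, minus strand): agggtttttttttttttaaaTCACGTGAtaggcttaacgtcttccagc
Lamp1 holds 4 separate matches, between 62 and 16 bases before the start, and Mcoln1 holds 2 separate sites. In Atp6v0d1 the match begins 4 bases before the start. A match of letters is a description and not a bound site.

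Differences between the groups were set beside the presence of these letters. The median log2 fold change was -0.23 over the 10 members with TCACGTG, ranging from -0.41 (Gaa) to 0.51 (Atp6v1a), and -0.29 over the 23 without it. Groups were apart downward in 2 of the 10 and in 5 of the 23. TCACGTG is not in the windows of Ctsc, Ctss, Acp2 or Cd68, the members with the largest differences among those apart. The 250 bases before the start are printed for Ctsc and Acp2, the members with the lowest adjusted p, for comparison with the windows above.
Ctsc (chr7:88277835-88278084, plus strand): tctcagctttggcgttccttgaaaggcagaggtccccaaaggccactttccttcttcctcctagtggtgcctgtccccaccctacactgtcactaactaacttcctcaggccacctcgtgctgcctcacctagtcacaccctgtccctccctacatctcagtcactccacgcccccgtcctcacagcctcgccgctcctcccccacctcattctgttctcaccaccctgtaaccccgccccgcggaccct
Acp2 (chr2:91202662-91202911, plus strand): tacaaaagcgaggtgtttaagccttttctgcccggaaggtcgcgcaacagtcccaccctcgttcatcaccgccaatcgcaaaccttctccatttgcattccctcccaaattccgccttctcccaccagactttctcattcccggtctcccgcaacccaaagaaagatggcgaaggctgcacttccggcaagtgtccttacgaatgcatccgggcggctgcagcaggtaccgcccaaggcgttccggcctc
That TCACGTG is missing says only that these letters are not in this window.

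Cysteine cathepsins and legumain were the role group with the most members apart. Of 7 genes, 6 had a log2 fold change below 0 and 4 were apart downward, with a median of -0.43. Of all genes tested, 69.4% were below 0 and 10.2% were apart downward, with a median of -0.15. The summed level of the 7 genes was 1240, 1396, 1496 and 1433 RPKM in PBS and 1131, 1217 and 1006 RPKM in MC-21. The highest MC-21 library lay just below PBS replicate 5, so the sums in RPKM without centring did not overlap, by a narrow gap. Sums with centred libraries are not given here. The same 6 genes were below 0 with centred libraries, against 47.3% of all genes, and with quantile normalization, against 51.3%. Their role group had a median of -0.26 with centred libraries. Ctsb, Ctsc and Ctss stayed apart with centred libraries, against 4.27% of all genes downward, and Ctsh did not. In the gene descriptions, apart refers to RPKM without centring unless stated.

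Ctsc (mm9, chr7:95426595-95459398) encodes cathepsin C, the dipeptidyl peptidase that activates the serine proteases of neutrophil azurophil granules. It was at 3.56, 4.83, 7.24 and 4.59 RPKM in PBS replicates 5 to 8 and at 1.70, 1.59 and 1.11 RPKM in MC-21 replicates 2 to 4. Every MC-21 library was below every PBS library. The log2 fold change was -1.27 ± 0.24 (SE; 95% interval -1.80 to -0.74), with an adjusted p of 0.0560 in limma. Over the 13 alternatives in which Ctsc was tested, the adjusted p ranged from 0.0502 to 0.212.

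Ctss (mm9, chr3:95330708-95360325) encodes cathepsin S, which cleaves the invariant chain of MHC class II in antigen-presenting cells. It was at 170.5, 284, 377 and 226 RPKM in PBS and at 151.5, 124 and 106 RPKM in MC-21. The groups were apart, with PBS replicate 5 nearest to MC-21. The log2 fold change was -1.01 ± 0.25 (adjusted p = 0.129), and over the alternatives the adjusted p ranged from 0.0656, without PBS replicate 5, to 0.341.

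Ctsh (mm9, chr9:89948990-89970927), an aminopeptidase, was at 33.2, 46.6, 49.1 and 47.7 RPKM in PBS and at 27.6, 31.7 and 23.0 RPKM in MC-21. Here too PBS replicate 5 was nearest to MC-21, without overlap, and the log2 fold change was -0.66 ± 0.19 (adjusted p = 0.169). With centred libraries the groups overlapped, and the log2 fold change was -0.50 (adjusted p = 0.285). Ctsb (mm9, chr14:63741302-63764758), an abundant endopeptidase and carboxypeptidase, was at 419, 459, 499 and 473 RPKM in PBS and at 353, 364 and 314 RPKM in MC-21. Its libraries were the tightest of the group, and the log2 fold change of -0.43 ± 0.12 had an adjusted p of 0.175. With centred libraries it was -0.26 (adjusted p = 0.462).

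Ctsl (mm9, chr13:64464522-64471614), an endopeptidase, was the member of this group with higher values in MC-21. It was at 219, 203, 149.8 and 169.6 RPKM in PBS and at 250.5, 316 and 208.5 RPKM in MC-21. MC-21 replicate 4 lay below PBS replicate 5, so the groups overlapped in RPKM. The log2 fold change was 0.47 ± 0.19 (adjusted p = 0.296), and it lay between 0.32 and 0.64 over the alternatives. With each library centred on its median, Ctsl was the 1 member apart upward, at a log2 fold change of 0.64 (adjusted p = 0.182). Ctsz, a carboxypeptidase, and Lgmn, the asparaginyl endopeptidase that processes other cathepsins, overlapped between the groups. Their log2 fold changes were -0.29 (adjusted p = 0.590) and -0.23 (adjusted p = 0.530). Lgmn, the most abundant of the 7 in RPKM after Ctsb, was at 316, 261, 305 and 381 RPKM in PBS and at 231, 292 and 279 RPKM in MC-21.

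Within a library, the balance between cathepsins differed between the groups. The ratio of Ctsl to Ctss in RPKM was 0.397 to 1.28 in PBS and 1.65 to 2.55 in MC-21, and that of Ctsl to Ctsb was 0.300 to 0.523 in PBS and 0.665 to 0.867 in MC-21. The ratio of Ctsd to Ctsb overlapped, at 1.47 to 2.15 in PBS and 1.72 to 2.29 in MC-21. A ratio within a library does not move with the scaling of that library. These pairs were chosen after their values were seen, so no test is given.

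**Figure D2:**
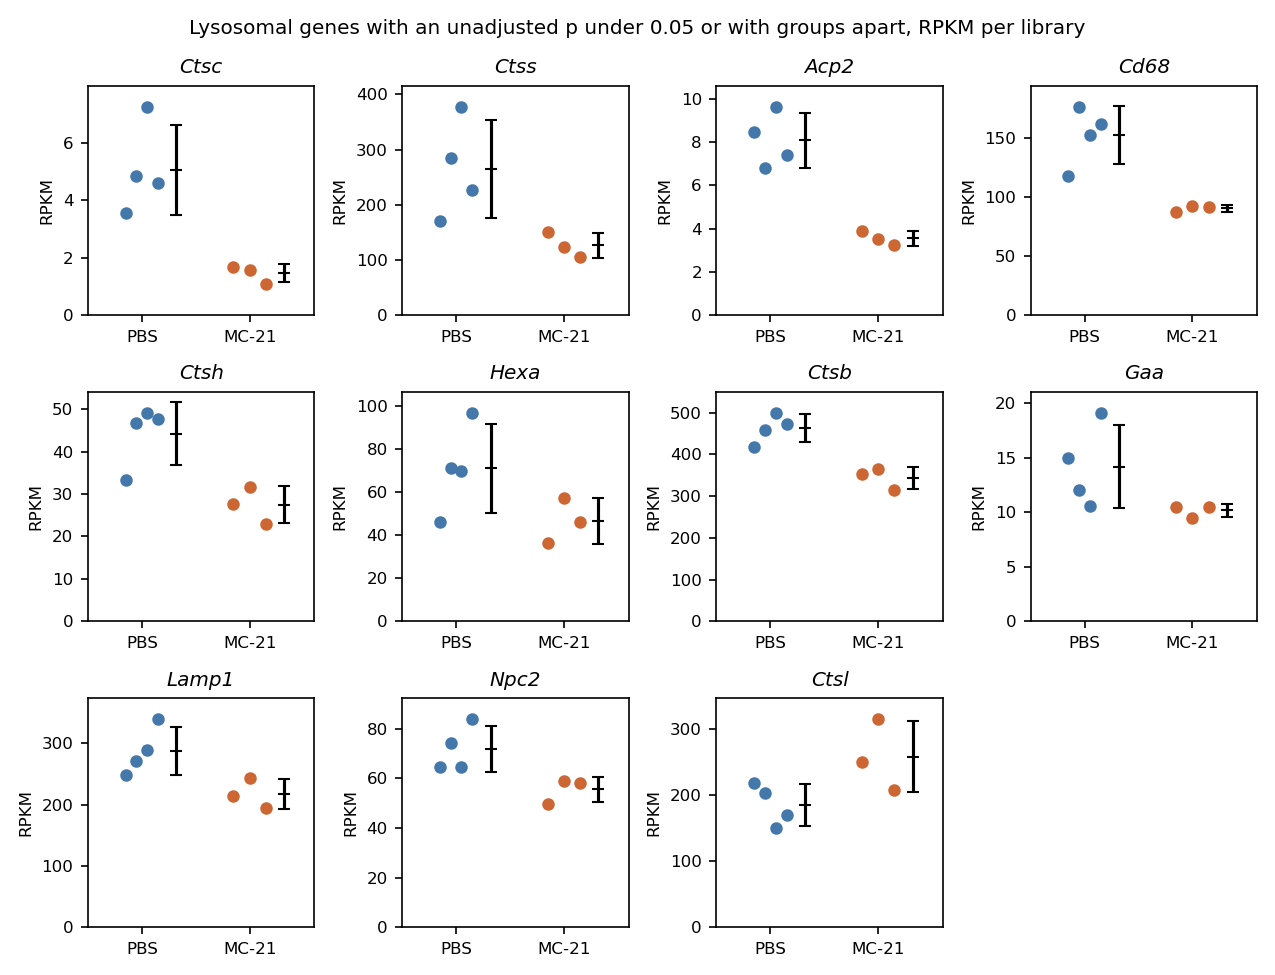
RPKM per library (linear axes from 0) of the 11 lysosomal genes with groups apart or an unadjusted p under 0.05, ordered by log2 fold change. Points are libraries of PBS (n = 4) and MC-21 (n = 3), and bars give the mean and SD. All panels except Hexa and Ctsl show no overlap, and Gaa is separated only narrowly.

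The other proteases were Ctsd, Ctsa (protective protein, which also stabilises neuraminidase) and Tpp1 (tripeptidyl peptidase). All 3 had log2 fold changes below 0 (Tpp1 above 0 with centred libraries) and overlapping groups. Of all genes tested, 69.4% were below 0. Ctsd was at 616, 893, 1007 and 1016 RPKM in PBS and at 740, 627 and 717 RPKM in MC-21. PBS replicate 5 was the lowest of all 7 libraries, and the log2 fold change was -0.32 ± 0.18 (adjusted p = 0.457). Without that library it was -0.48 (adjusted p = 0.190). Ctsa and Tpp1 differed by -0.29 (adjusted p = 0.408) and -0.12 (adjusted p = 0.844).

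Glycosidases remove sugars from glycoproteins, glycolipids and glycogen. Of 7 genes, 5 had a log2 fold change below 0, against 69.4% of all genes tested, with a median of -0.22. Downward, 1 was apart, against 10.2% of all genes. That gene, Gaa (acid alpha-glucosidase, which degrades glycogen), was at 15.03, 12.1, 10.6 and 19.1 RPKM in PBS and at 10.5, 9.53 and 10.5 RPKM in MC-21. The gap between PBS replicate 7 and MC-21 replicate 2 was small, and the log2 fold change was -0.41 ± 0.21 (adjusted p = 0.400). With centred libraries the groups overlapped, and the log2 fold change was -0.25 (adjusted p = 0.717). Hexa (the alpha subunit of beta-hexosaminidase) was at 46.2, 70.9, 69.9 and 96.6 RPKM in PBS and at 36.2, 57.3 and 46.1 RPKM in MC-21. It was the most abundant glycosidase, its groups overlapped through PBS replicate 5, and the log2 fold change was -0.57 ± 0.25 (adjusted p = 0.329).

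The remaining glycosidases overlapped between the groups. Man2b1 (alpha-mannosidase), Glb1 (beta-galactosidase) and Gusb (beta-glucuronidase) had log2 fold changes of -0.49, -0.22 and -0.18. Gla (alpha-galactosidase A) and Neu1 (sialidase) had values of 0.01 and 0.05. Their adjusted p lay between 0.499 for Man2b1 and 0.989 for Gla.

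Lipid hydrolases and their helpers comprised 6 genes, all with a log2 fold change below 0 (Npc1 above 0 with centred libraries or quantile normalization) and a median of -0.34. Of all genes tested, 69.4% were below 0, with a median of -0.15. Npc2, the luminal cholesterol carrier, was at 64.6, 74.1, 64.4 and 84.0 RPKM in PBS and at 49.7, 59.1 and 58.0 RPKM in MC-21. No other gene of the 6 had groups apart, and the log2 fold change of Npc2 was -0.36 ± 0.15 (adjusted p = 0.319). With centred libraries its groups overlapped, and the log2 fold change was -0.19 (adjusted p = 0.702). Psap was at 490, 803, 722 and 1083 RPKM in PBS and at 459, 659 and 660 RPKM in MC-21. PBS replicate 5 lay within the MC-21 range, and the log2 fold change was -0.35 ± 0.25 (adjusted p = 0.559). It was -0.55 without PBS replicate 5, -0.17 without PBS replicate 8 and -0.17 without MC-21 replicate 2.

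Asah1 (acid ceramidase) had the largest log2 fold change of this group, -1.07 ± 0.58, but an adjusted p of 0.436. It was at 21.4, 33.7, 31.3 and 26.3 RPKM in PBS and at 24.2, 25.4 and 2.88 RPKM in MC-21. Only MC-21 replicate 4 was low, and the other 2 MC-21 libraries lay within the PBS range. Without that library the log2 fold change was -0.16 (adjusted p = 0.826). Lipa (acid lipase), Npc1 (the membrane partner of Npc2) and Smpd1 (acid sphingomyelinase) differed by -0.19, -0.13 and -0.32, with adjusted p of 0.671, 0.806 and 0.541.

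The acid phosphatases differed in the size of their differences. Acp2 (mm9, chr2:91043042-91054255), the lysosomal acid phosphatase, was at 8.47, 6.79, 9.62 and 7.38 RPKM in PBS and at 3.91, 3.51 and 3.25 RPKM in MC-21. The lowest PBS library lay well above the highest MC-21 library. The log2 fold change was -0.99 ± 0.18 (95% interval -1.39 to -0.58), with an adjusted p of 0.0519, the lowest among the 38 members. It lay on either side of the threshold over the alternatives, from 0.0488 to 0.172. Acp5 (tartrate-resistant acid phosphatase), the more abundant of the pair, was at 24.8, 44.0, 43.0 and 37.8 RPKM in PBS and at 28.8, 28.0 and 25.1 RPKM in MC-21. Its groups overlapped through PBS replicate 5, the lowest of all 7, and its log2 fold change was -0.41 ± 0.21 (adjusted p = 0.398). The ratio of Acp2 to Acp5 was 0.154 to 0.341 in PBS and 0.125 to 0.136 in MC-21, also a pair chosen after its values were seen.

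Membrane proteins of the lysosome went in both directions. Cd68 (mm9, chr11:69477715-69479655), a glycoprotein of late endosomes that is abundant in mononuclear phagocytes, was at 118, 176, 152.6 and 161.7 RPKM in PBS and at 87.1, 92.2 and 91.7 RPKM in MC-21. The MC-21 libraries lay close together and below all PBS libraries. The log2 fold change was -0.73 ± 0.16 (adjusted p = 0.0786). Over 14 alternatives the adjusted p ranged from 0.0446, without PBS replicate 5, to 0.236, and no other alternative brought it under 0.05. Lamp1, the major glycoprotein of the limiting membrane, was at 247, 271, 288 and 339 RPKM in PBS and at 214.5, 243.5 and 193.6 RPKM in MC-21. Its groups were apart by a narrow gap, with a log2 fold change of -0.39 ± 0.15 (adjusted p = 0.274). With centred libraries they overlapped, and the log2 fold change was -0.23 (adjusted p = 0.579).

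Cd63, a tetraspanin of late endosomes and azurophil granules, had a mean of 131 ± 29.2 RPKM in PBS (n = 4) and 163 ± 21.9 RPKM in MC-21 (n = 3). Its log2 fold change was 0.33 ± 0.19 (adjusted p = 0.461), and its groups overlapped. The ratio of Cd68 to Cd63 within a library was 1.05 to 1.50 in PBS and 0.501 to 0.661 in MC-21, another pair chosen after its values were seen. Laptm5, a transmembrane protein of hematopoietic cells and the most abundant of this group, was at 252, 406, 407 and 323 RPKM in PBS and at 301, 373 and 369.5 RPKM in MC-21. The MC-21 values lay within the PBS range, and the log2 fold change was 0.02 ± 0.19 (adjusted p = 0.964). It was -0.12 without PBS replicate 5. Lamp2, Mcoln1 (a calcium channel) and Scarb2 (the receptor that carries glucocerebrosidase) differed by -0.32, -0.22 and 0.07, and their groups overlapped, with adjusted p from 0.595 to 0.877.

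The proton pump was represented by the membrane sector subunits Atp6v0c and Atp6v0d1, the catalytic head subunits Atp6v1a and Atp6v1b2, and the accessory protein Atp6ap1. None of the 5 had groups apart, and the adjusted p was 0.532 or higher. Of the 5, 2 had a log2 fold change below 0, against 69.4% of all genes tested. With centred libraries 0 did, against 47.3% of all genes, and the median of the 5 was 0.19. Atp6v0c, the proteolipid of the rotor, was at 203, 249, 233.5 and 252 RPKM in PBS and at 288.5, 218 and 194.9 RPKM in MC-21. Its highest and its lowest library were both from MC-21, and the log2 fold change was -0.02 ± 0.16 (95% interval -0.38 to 0.34). With each library centred on its median the sign turned, to 0.15. Pseudogene copies of Atp6v0c exist in the mouse, and how reads shared with them were counted is not given in the sources used here.

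Atp6v0d1, Atp6ap1 and Atp6v1b2 differed by 0.03, 0.04 and -0.13. Atp6v1a was at 11.8, 40.8, 23.4 and 16.6 RPKM in PBS and at 31.5, 28.2 and 30.8 RPKM in MC-21. The PBS libraries spread over a coefficient of variation of 54.8%, and the log2 fold change of 0.51 ± 0.34 had an adjusted p of 0.532. It was 0.25 without PBS replicate 5 and 0.82 without PBS replicate 6. The ratio of Ctss to Atp6v0c was 0.840 to 1.62 in PBS and 0.525 to 0.567 in MC-21, again a pair chosen after its values were seen.

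Tfeb, the transcription factor for lysosomal genes, was at 8.32, 9.03, 6.92 and 13.4 RPKM in PBS and at 8.71, 9.11 and 9.03 RPKM in MC-21. The MC-21 libraries lay within the PBS range, and the log2 fold change was -0.03 ± 0.22 (95% interval -0.51 to 0.45; adjusted p = 0.962). It turned to 0.13 with libraries centred on their median and to 0.12 with quantile normalization.

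**Figure D3:**
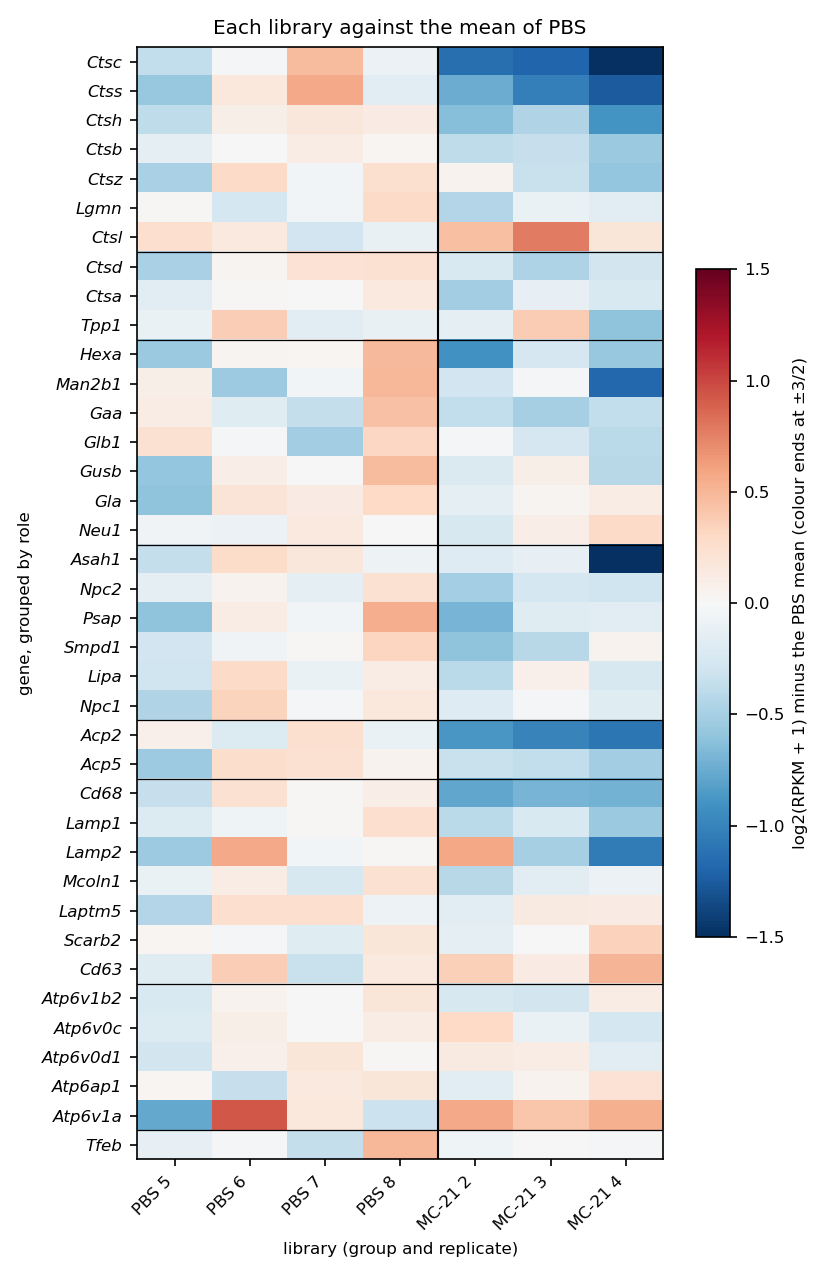
Log2(RPKM + 1) of each of the 38 genes (rows, grouped by role) in each library (columns) minus the mean of the 4 PBS libraries, with the colour scale ending at ±1.5. The column of PBS replicate 5 is blue in most rows, the rows Ctsc, Ctss, Acp2 and Cd68 are blue in all 3 MC-21 libraries, and Asah1 is deep blue in MC-21 replicate 4 alone.

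Other genes of the lysosomal pathway were taken from lists of 102 genes, of which 86 passed the level of 1 RPKM. By limma, 0 of the 86 had an adjusted p under 0.05, under any setting tried. At an unadjusted p under 0.05, 9 (10.5%) were lower and 8 (9.3%) higher, against 11.2% and 3.59% of all genes tested. Groups were apart downward in 8 (9.3%) and upward in 2 (2.33%), against 10.2% and 3.1%. The median log2 fold change was -0.10, against -0.15 over all genes tested. Of 30 further hydrolases, 4 were lower and 2 higher at that unadjusted level, with a median of -0.22. Of 21 genes of membrane and transport, 2 were lower and 4 higher, and of 9 genes of delivery to the lysosome 1 was lower and 0 were higher. Of 12 further proton pump genes, 0 were lower and 0 higher, with a median of 0.01. Of 13 regulators, 2 were lower and 2 higher. Of the azurophil granule list, Elane was not analysed here and Mpo and Ctsg were under the level tested. Prtn3 (proteinase 3, a protease activated by cathepsin C) was tested, at a log2 fold change of -0.08 (adjusted p = 0.943).

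None of the 86 had an unadjusted p under 0.05, a 2-fold change and groups apart, so the next 4 genes were chosen after their values were seen. Prcp and Scpep1, carboxypeptidases of the lysosome, were apart and lower in MC-21, at -0.83 (adjusted p = 0.0906) and -0.60 (adjusted p = 0.168). Slc15a3, a peptide and histidine transporter, and Ctns, the cystine exporter, were apart and higher in MC-21, at 0.59 (adjusted p = 0.186) and 0.45 (adjusted p = 0.324).

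Markers of monocytes and macrophages, 12 genes fixed as a list that holds no lysosomal member, moved with the groups in the same libraries. Of 11 tested, 10 had a log2 fold change below 0, 8 were apart downward and 6 had an adjusted p under 0.05 in limma, with a median of -1.30. Of all genes, the shares were 69.4%, 10.2% and, in either direction, 0.625%. The marker sum was 417 to 512 RPKM in PBS and 168 to 235 RPKM in MC-21. Ccr2 was at 1.91 to 3.26 RPKM in PBS and at 0 to 0.390 RPKM in MC-21. Adgre1 did not follow, at 7.36 to 21.9 RPKM in PBS and 3.88 to 22.2 RPKM in MC-21 (log2 fold change 0.02). Csf1r and Ms4a7 were lower but overlapped between the groups (adjusted p = 0.307 and 0.458 in limma). Cd68, Ctss and Ctsc are also expressed by macrophages, and the part of such cells or their RNA in the lysosomal differences was not tested.

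Of the other lists, 0 genes had an adjusted p under 0.05. The log2 fold change was below 0 in 4 of 4 Kupffer cell markers tested (median -0.59), 3 of 3 B cell markers (-0.78) and 2 of 2 T and NK cell markers (-0.54). It was below 0 in 5 of 6 endothelial (-0.42) and 6 of 7 hepatocyte markers (-0.04), and in 2 of 9 neutrophil markers (0.48). Each of the 1 eosinophil and 1 dendritic cell markers tested was below 0, as were 69.4% of all genes. Kupffer cell markers (4 of 6 tested) summed to 59.7 to 90.8 RPKM in PBS and 37.0 to 64.4 RPKM in MC-21. Endothelial markers summed to 874 to 2149 RPKM in PBS and 930 to 1921 RPKM in MC-21, and hepatocyte markers to 275 to 535 RPKM and 273 to 404 RPKM. B cell markers summed to 10.7 to 29.9 RPKM and 6.14 to 9.73 RPKM, T and NK cell markers to 3.67 to 7.99 RPKM and 1.82 to 3.92 RPKM, eosinophil markers to 10.4 to 19.5 RPKM and 8.82 to 15.6 RPKM, and dendritic cell markers to 1.12 to 3.30 RPKM and 2.23 to 2.68 RPKM. Neutrophil markers, at 18101 to 30676 RPKM in PBS and 27837 to 41492 RPKM in MC-21, were by far the highest list in every library. No marker found in the table was at 0 in all 7 libraries.

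**Figure D4:**
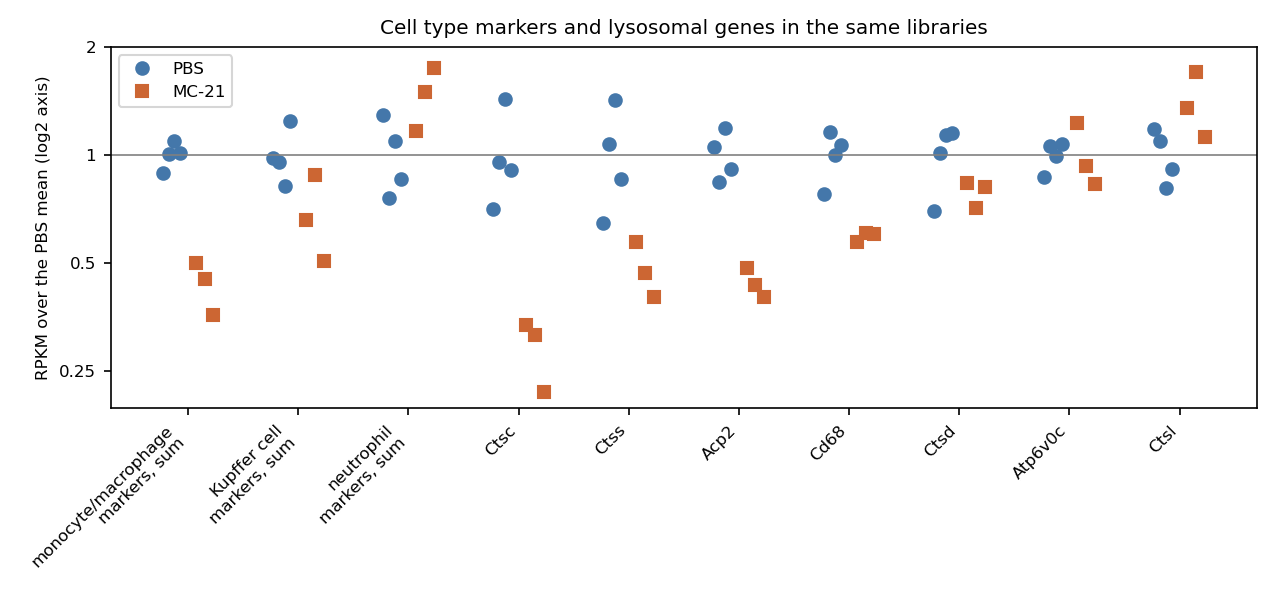
Summed marker levels and single lysosomal genes in each library, as RPKM divided by the mean of PBS (log2 axis), with circles for PBS (n = 4) and squares for MC-21 (n = 3). The monocyte and macrophage sum, Ctsc, Ctss, Acp2 and Cd68 are lower in all MC-21 libraries, and Ctsd, Atp6v0c and Ctsl overlap between the groups.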

How the data were processed

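RNA was measured in sorted liver neutrophils of 4 PBS and 3 MC-21 mice, grouped by the labels. The authors made 3′ libraries, sequenced them on a NextSeq, mapped reads to mm9 with HISAT 0.1.5, used SAMtools, and deposited gene RPKM values from Partek Genomics Suite 6.6. The annotation, strand use and handling of shared reads are not given in the sources used here. From these values, limma 3.58.1 (R 4.3.3; lmFit, eBayes with a trend, two-sided) was fitted to log2(RPKM + 1), pseudocount 1, for the 9594 genes averaging 1 RPKM or more, with Benjamini-Hochberg adjustment over all of them. Fold changes on this scale understate those of low genes. Groups are called apart where their libraries do not overlap. The study's cutoffs were an unadjusted p under 0.05 and 2-fold, in an unmoderated test per gene; here they were applied to the limma fit.

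Depth came from the steps of low RPKM values: 449 of 982 genes (45.7%) agreed within 1% on 1 depth. In those 449 genes, that depth turned 99.5% of 2220 low values into whole reads, give or take 0.1. The genes were selected by that agreement, so the 99.5% is not an independent check. On data simulated for this comparison with 9594 genes, limma called 88 of 100 genes changed by 2 on the log2 scale and 42 of 100 changed by 1, with 9 false calls. The simulated noise was independent between genes and held no shift of the whole table, so these counts may not carry over to the real data. Gene positions came from GENCODE vM1 on mm9, and promoters from RefSeq. Library numbers are mice; p-values measure the spread between these mice.

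The members and lists were chosen with earlier results of these data known. Every member was described, with values per library for those apart or with an unadjusted p under 0.05 and for the most abundant of each role, and Asah1 and Atp6v1a were added after their values were seen. Alternatives were other pseudocounts, filters, scalings and tests, and leaving out each library. Results of 1 further lysosomal gene are not reported here; it stayed in the fits and counts.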

Additional observations from a re-analysis of the deposited data

Results flagged for a closer look

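In groups of 4, a library was sought whose distance from its nearest neighbour was large against the range of the group (Dixon's ratio above its 95% critical value). Over the 38 members in PBS, 2 such libraries were found, and chance flags about 1 in 20 groups, or 1.9 of 38. Ctsh was lowest in PBS replicate 5, at 33.2 RPKM, against 46.6 to 49.1 RPKM in the other 3 (ratio 0.844). Tpp1 was highest in PBS replicate 6, at 44.3 RPKM, against 30.6 to 31.8 RPKM in the others (ratio 0.914). MC-21, with 3 libraries, was not searched.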

How the results depend on the processing

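No paired analysis was possible because the groups share no replicate numbers. With limma, 1 member passed an adjusted p under 0.05 with a pseudocount of 0.1, with a mean of at least 5 RPKM or without a trend (Acp2 each time), against 0 in the report. Leaving out 1 library gave 0 to 1 such members: Cd68 without PBS replicate 5 and Acp2 without PBS replicate 6. The unadjusted count, added as a result after seeing the data, was 10, and 6 without a trend. It was 6 (without PBS replicate 8) to 14 (without PBS replicate 5) when a library was left out. All were lower in MC-21 except 1 of the 10 and 1 of the 14. Of all genes, 11.2% were lower at that level, 11.0% without a trend, 7.16% without PBS replicate 8 and 8.92% without PBS replicate 5. With the 2-fold cutoff the member count was 2, then 3 with a pseudocount of 0.1 or in the unmoderated test on RPKM values (Acp2 added each time). It was 1 with a mean of at least 5 RPKM, where Ctsc was not tested and 37 members remained, and 1 with centred libraries. Without a library it was 1 to 4: 1 without PBS replicate 7 or MC-21 replicate 4, and 4 without MC-21 replicate 2. No share of all genes is given for the 2-fold cutoff under the alternatives, so those counts cannot be set against one. Members apart numbered 9, and 9 to 17 without a library, 17 without PBS replicate 5. Over all genes, leaving out a library raised the share apart downward from 10.2% to between 11.7% and 18.4%. The share upward rose from 3.1% to between 4.19% and 5.87%. Members apart numbered 8 with quantile normalization, 8 with a mean of at least 5 RPKM, where Ctsc was not tested, and 6 with centring. The median log2 fold change of -0.26 became -0.10 with centring and lay between -0.36 (without PBS replicate 5) and -0.16 (without MC-21 replicate 4). For the 86 further genes, the 2-fold count of 1 became 2 with a pseudocount of 0.1, 0 in the unmoderated test on log2 values and 0 to 2 without a library (0 without PBS replicate 5 or 8, 2 without MC-21 replicate 2). Only part of the 38 members were followed singly over the alternatives. Among these the sign turned for Tfeb (0.12 with quantile normalization, 0.13 with centring, -0.15 to 0.14 without a library), Atp6v0c (0.15 with centring, -0.18 to 0.10) and Laptm5 (-0.12 to 0.12). Of their single-gene values, 248 kept direction and side of the threshold, 12 turned sign and 5 passed the threshold. Of the members not followed singly, Tpp1, Npc1 and Atp6v1b2 turned sign with centring, and Npc1 with quantile normalization. Over all genes, 41 of 60 calls were lower, against 30 of 74 with centring and 29 of 55 with quantile normalization. The cause was not tested. Ctsc rested on the fewest reads, 8.12 to 61.8 per library.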
